A study of Mus musculus with 46 samples.

Results

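The genes described here are 10 genes of interleukin-7 (IL-7) and interleukin-2 (IL-2) receptor signalling in mouse T cells. They are the receptor chains Il7r, Il2ra, Il2rb and Il2rg, the kinases Jak1 and Jak3, the transcription factors Stat5a and Stat5b, and the inhibitors Socs1 and Cish. They were taken by gene symbol from a deposited table of 19521 genes, where all 10 were found. All 10 passed the filter on low counts in every comparison, and no library had a count of 0 for any of them.

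RNA was sequenced from sorted T cells of C57BL/6 mice that were either wild type or hCD2-LMO2 knock-in, called transgenic below. LMO2 links transcription factors into larger complexes and acts as an oncogene in T-cell leukaemia, and hCD2 names the human gene of CD2, a surface protein of T cells. Wild type and transgenic thymocytes were sorted as DN1, DN3, a mixture of all CD4- CD8- double-negative cells (total DN), CD4+ CD8+ cells (double positive, DP), and the single-positive stages CD4SP and CD8SP. Each group had 3 libraries except wild type DN1, with 1. Splenic CD4+ and CD8+ T cells came from transgenic mice alone, with 3 libraries each, so spleen has no wild type control. The mice were kept specific-pathogen free, no treatment is named, and no age, sex or number of mice per library was found in the labels. The stages are compared to see how transcripts differ when LMO2 is overexpressed.

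IL-7 binds a receptor of 2 chains, IL-7Rα (Il7r) and the common gamma chain (Il2rg), and IL-2 binds the common gamma chain with IL-2Rβ (Il2rb), joined by CD25 (Il2ra) for high affinity. JAK1 sits on the private chains and JAK3 on the common gamma chain. They phosphorylate STAT5A and STAT5B, which enter the nucleus and switch on genes of survival and growth, among them Cish and Socs1, whose proteins dampen the signal. In the thymus IL-7 keeps early double-negative cells alive, DP cells lose its receptor, and cells that pass selection regain it.

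Promoters of 9 of the 10 genes were found in RefSeq, build GRCm38.p6, as windows of 300 bases from 250 before to 50 after a start site, and Il2rb was not matched. The letters TTCNNNGAA, which STAT factors read and which are the same on both strands, occur in 8.3% of 32851 such windows. They occur in windows of 2 of these genes, Cish and Il7r, and the stretches that hold them are shown. The capitals mark the matches, each sequence runs 5′ to 3′ on the strand of its gene, and the Cish match comes in a pair that lies just past the start site, 2 bases apart.
Cish, chr9:107296655-107296684, plus strand: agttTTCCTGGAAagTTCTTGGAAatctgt
Il7r, chr15:9529955-9530054, minus strand: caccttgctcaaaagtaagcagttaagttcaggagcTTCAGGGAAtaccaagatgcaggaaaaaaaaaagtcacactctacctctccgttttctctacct
The Cish matches begin at bases 1 and 12 counted from the start site, and the Il7r match begins 142 bases before it, at position -142. A match describes the letters, and binding was not measured.

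The libraries held 17211426 to 28842773 counted reads. Lmo2 was higher in transgenic than in wild type cells in DN3, by 6.47 on the log2 scale, in total DN by 2.29, in CD4SP by 4.92 and in CD8SP by 6.68, with edgeR adjusted p of 0.0058 or less. In transgenic DP it was at 80.7 and 71.9 CPM (counts scaled to equal depth) in replicates 1 and 2 and at 0.397 CPM in replicate 3, and in DN1 the genotypes differed by less than the error, at 0.34 ± 1.01 on the log2 scale. Some libraries went against their labels. The library labelled transgenic CD4SP replicate 1 held 191 CPM of Cd4, against 1386 to 1869 CPM in wild type CD4SP, with 1888 CPM of Cpa3, which was at 513 to 859 CPM in transgenic DN3 and under 1 CPM in wild type CD4SP. The library labelled transgenic CD4SP replicate 2 held 3070 CPM of Cd8a and 6438 CPM of Rag1, levels in the range of DP libraries for Cd8a and of transgenic DP for Rag1. Transgenic splenic CD8 replicate 1 held 416 CPM of Cd8a against 1475 and 1466 CPM, with a summed level of 6 B-cell markers of 3526 CPM and of 8 myeloid markers of 2918 CPM. Splenic CD4 replicate 3 held a like level of myeloid markers, 3106 CPM. Values without these libraries are given where they end or make a call.

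Per transcript length, as FPKM, a level scaled by transcript length and depth, Il2rg had the highest median of the 10 genes over all libraries and Cish the lowest, but the order differed by group. In DN3 Il2ra was above Il2rg, at group means of 289 and 197 FPKM in wild type and 335 and 245.5 FPKM in transgenic cells, and in wild type DN3 Cish was above Il2rb, at 19.6 and 2.64 FPKM. The median over the 40 libraries was 442 FPKM for Il2rg, 118 for Jak1, 91.4 for Stat5b and 61.0 for Socs1. It was 53.1 FPKM for Il2rb, 51.5 for Stat5a, 47.8 for Il7r, 33.3 for Jak3, 11.8 for Il2ra and 5.76 for Cish. The receptor chain genes Il2rb, Il2ra and Il7r varied most between groups, followed by the inhibitor gene Cish. The other 6 genes, Il2rg of the common gamma chain among them, varied far less. DN3 was sorted on the protein of Il2ra, which set the high end of its span. Between the highest and the lowest of the 14 group means in CPM, Il2rb spanned 457-fold, Il2ra 281-fold, Il7r 156-fold and Cish 94.8-fold. Jak3 spanned 10.6-fold, Socs1 9.77-fold, Stat5a 6.98-fold, Il2rg 4.80-fold, Stat5b 3.99-fold and Jak1 3.99-fold. In the order of group means most neighbours were not separable. The libraries of neighbouring groups overlapped in 8 of 13 steps for Il2ra, in 9 for Il7r and Il2rb, in 10 for Jak1, Jak3 and Cish, and in 11 for Il2rg, Stat5a, Stat5b and Socs1.

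**Figure D1:**
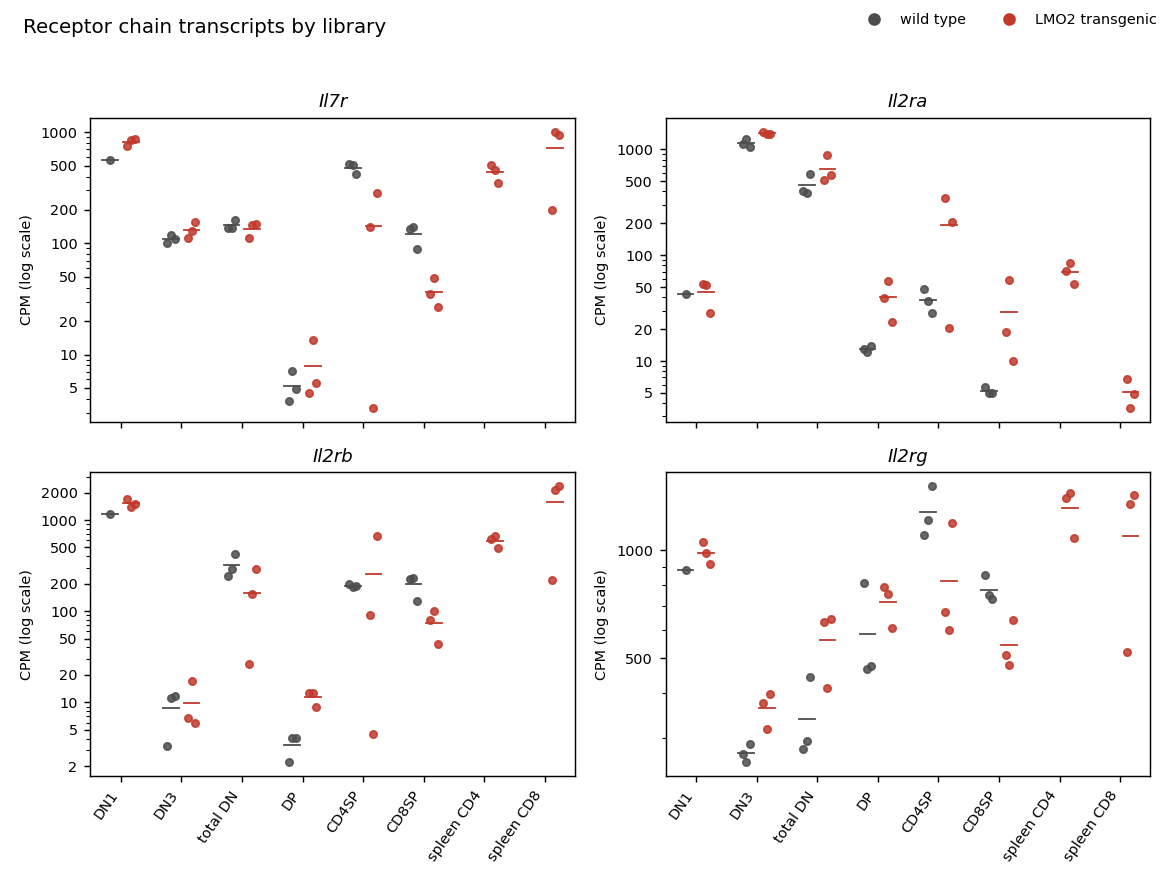
CPM of the 4 receptor chain genes (log axis) in each library, by stage, with wild type in grey and LMO2 transgenic in red; the short lines are group means. By group mean Il7r was lowest in DP cells of both genotypes, and Il2ra was highest in DN3, the stage sorted by its protein.

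From DN3 to DP, transcripts of the private receptor chains fell in wild type cells while those of the shared chain rose. Il7r, Il2ra, Il2rb, Jak3 and Cish fell, Il2rg, Jak1, Stat5b and Socs1 rose, and Stat5a did neither. These were 4 of 10 genes higher and 5 lower, where 60% of 11953 genes tested were called, 28.6% higher and 31.4% lower (quasi-likelihood test of edgeR, p adjusted after Benjamini and Hochberg, threshold 0.05). The groups did not overlap in 8 of the 10 and in 67.9% of all genes.

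Il7r was at 100, 118 and 109 CPM in wild type DN3 and at 3.79, 7.05 and 4.91 CPM in wild type DP. It fell by 4.38 ± 0.22 on the log2 scale (SE; n = 3 and 3; edgeR adjusted p = 1.05e-06). The series text marks DN3 as CD25+, so the high Il2ra of DN3 was set by the sort. Il2ra was at 1116, 1248 and 1056 CPM there and at 12.9, 12.1 and 13.9 CPM in DP. Il2rb, the beta chain shared with IL-15, was low in both stages, at 3.36, 11.1 and 11.8 CPM in DN3 and 2.20, 4.03 and 4.02 CPM in DP. Its fall by 1.36 ± 0.44 (edgeR adjusted p = 0.024) lost the call without DN3 replicate 2, DN3 replicate 3 or DP replicate 1, at -1.17, -1.08 and -1.17.

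Il2rg rose by 1.11 ± 0.24, from 272, 257 and 289 CPM to 808, 469 and 475 CPM (edgeR adjusted p = 0.00377). Jak1 rose by 0.97 ± 0.22 and Stat5b by 1.42 ± 0.19, and Jak3, the kinase of the common gamma chain, fell by 1.05 ± 0.14 (edgeR adjusted p between 0.000207 and 0.00408). The 2 inhibitors parted. Socs1, which blocks the kinases directly, rose by 1.52 ± 0.23, from 90.9, 62.7 and 82.3 CPM to 287, 197 and 192 CPM. Cish, which competes for STAT5 docking sites, fell by 6.06 ± 0.21, from 53.3, 45.4 and 57.9 CPM to 0.623, 0.937 and 0.771 CPM (edgeR adjusted p = 0.000429 and 2.4e-07). In a bulk sample, fewer cells that hold a transcript and less of it per cell cannot be told apart.

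From DP to the single-positive stages, wild type cells regained Il7r, Il2rb, Jak3 and Cish and lowered Socs1 in both lineages. In CD4SP 7 of the 10 genes rose and 1 fell, where 43.9% of the genes tested were called, 23.4% higher and 20.5% lower. In CD8SP 4 rose and 2 fell, where 37.7% were called, 20.8% higher and 16.9% lower. Il7r reached 516, 504 and 423 CPM in CD4SP, a rise by 6.57 ± 0.27, and 136, 142 and 88.5 CPM in CD8SP, a rise by 4.55 ± 0.29. The CD4SP libraries were all above the CD8SP libraries. Il2rb rose by 5.85 ± 0.24 and 5.86 ± 0.34, to 200, 184 and 189 CPM in CD4SP and 228, 233 and 130 CPM in CD8SP, where the 2 groups overlapped. Cish rose by 5.79 ± 0.26 and 4.69 ± 0.38, and Jak3 by 2.63 ± 0.15 and 1.83 ± 0.21. These 8 values had edgeR adjusted p of 0.00104 or less.

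The lineages parted at Il2ra, which rose in CD4SP by 1.58 ± 0.20 and fell in CD8SP by 1.30 ± 0.18 (edgeR adjusted p = 0.00066 and 0.00174). Its levels were 47.6, 36.6 and 28.4 CPM in CD4SP and 5.73, 5.02 and 4.94 CPM in CD8SP. Regulatory T cells, which carry CD25, are one population that CD4SP cells can hold, and the summed level of 4 of their markers was 192 to 304 CPM in CD4SP, 175 to 193 in CD8SP and 92.7 to 156 in DP. Their part in the Il2ra level was not tested. Il2rg rose by 1.17 ± 0.27 and Jak1 by 0.83 ± 0.19 in CD4SP (edgeR adjusted p = 0.0109 and 0.00983). In CD8SP they were 0.42 ± 0.25 and 0.26 ± 0.20 above DP and missed the threshold, which both passed without wild type DP replicate 1, at 0.75 and 0.46. Socs1 fell by 1.55 ± 0.21 in CD4SP and by 1.59 ± 0.29 in CD8SP. Stat5a and Stat5b were called in neither step.

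**Figure D2:**
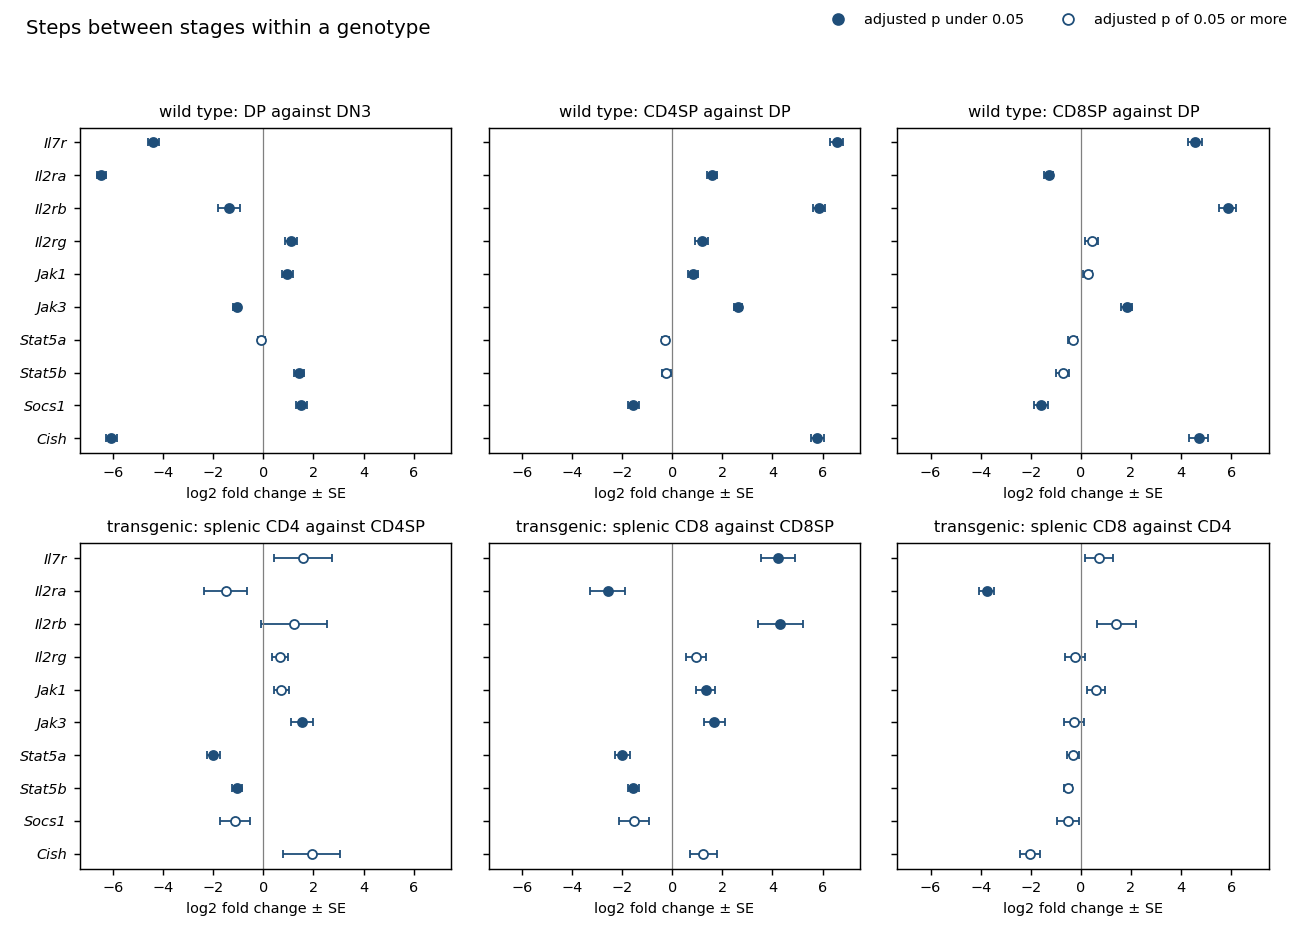
Log2 fold change with its standard error for each of the 10 genes in 6 steps between stages, the upper row in wild type thymus and the lower row in transgenic cells; filled points have an adjusted p under 0.05. In wild type, Il7r and Cish fall from DN3 to DP and rise again in both single-positive stages, while Stat5a is called in none of the 3 steps.

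In transgenic DN3 thymocytes most genes of the signalling chain were higher than in wild type and the 2 inhibitors were lower. Il2ra, Il2rg, Jak1, Jak3, Stat5a and Stat5b rose, Socs1 and Cish fell, and Il7r and Il2rb were not called. That is 8 of 10 genes, where 45.7% of 12037 genes tested were called, 23.4% higher and 22.2% lower. The median log2 fold change was 0.39 over the 10 genes and -0.03 over all genes tested. The libraries of the 2 genotypes did not overlap in 8 of the 10 genes, and they did not overlap in 57.8% of all genes.

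Stat5a was at 189, 204 and 202 CPM in wild type DN3 and at 581, 511 and 589 CPM in transgenic DN3, a 2.86-fold rise (log2 1.52 ± 0.11, edgeR adjusted p = 2.04e-05). Stat5b was at 207, 234 and 231 CPM against 506, 495 and 565 CPM, a 2.36-fold rise (log2 1.24 ± 0.11, edgeR adjusted p = 5.93e-05). All transgenic libraries stood above all wild type libraries for both genes. They are neighbouring genes that code for near-identical proteins, and how reads of shared stretches were counted is not stated. Per transcript length the ratio of Stat5a to Stat5b FPKM was 1.16 to 1.21 in wild type and 1.38 to 1.53 in transgenic DN3.

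Of the kinases, Jak3 rose 2.12-fold (log2 1.08 ± 0.13, edgeR adjusted p = 0.000297), from 56.6, 69.7 and 67.0 CPM to 124, 125 and 154 CPM. Jak1 was at 259, 377 and 317 CPM in wild type and 523, 412 and 464 CPM in transgenic DN3. Its rise of 0.57 ± 0.15 (edgeR adjusted p = 0.0146) lost the call by a small margin without wild type replicate 1, wild type replicate 3 or transgenic replicate 1, at 0.43, 0.57 and 0.50. Of the receptor chains, Il2rg rose by 0.44 ± 0.12 (edgeR adjusted p = 0.0139), from 272, 257 and 289 CPM to 376, 318 and 397 CPM. Il2ra rose by 0.34 ± 0.11 (edgeR adjusted p = 0.0316), from 1116, 1248 and 1056 CPM to 1458, 1407 and 1401 CPM. That call was kept in 1 of 6 fits with a library left out, the one without wild type replicate 2, and the change was 0.28 to 0.40 over the 6. Both genotypes were sorted on its protein.

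Il7r was at 100, 118 and 109 CPM against 112, 131 and 157 CPM, and its difference of 0.31 ± 0.14 had an edgeR adjusted p of 0.0979. Without transgenic replicate 1 it was 0.43 and called, at an edgeR adjusted p of 0.0373. Il2rb differed by 0.20 ± 0.56 at levels under 18 CPM.

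Cish fell 3.11-fold in transgenic DN3 (log2 -1.64 ± 0.25, edgeR adjusted p = 0.00124), from 53.3, 45.4 and 57.9 CPM to 23.3, 15.6 and 10.9 CPM. Socs1 fell 2.29-fold (log2 -1.20 ± 0.17, edgeR adjusted p = 0.000735), from 90.9, 62.7 and 82.3 CPM to 40.9, 31.2 and 29.5 CPM. No transgenic library reached a wild type library for either inhibitor. The calls of Stat5a, Stat5b, Jak3, Il2rg, Socs1 and Cish were kept in all 6 fits that left out 1 library. In a fit of all 40 libraries, whose spread is pooled over every group, Il2ra, Il2rg, Jak1, Socs1 and Cish lost theirs, at edgeR adjusted p between 0.0905 and 0.713. Other cell markers also separated the genotypes in DN3. The summed level of 6 mature T-cell markers was 478 to 591 CPM in wild type and 1331 to 1520 CPM in transgenic DN3. That list includes Klf2, and Cd4 and Cd8a, which are also among the DP markers. It summed higher in wild type DP, at 5249 to 7002 CPM, than in wild type CD4SP, at 2889 to 3218 CPM. It thus does not mark mature cells alone. Gamma-delta T-cell markers, over 3 genes, summed to 106 to 121 CPM in wild type and 270 to 599 CPM in transgenic DN3. Those of thymic stroma, over 6 genes, summed to 153 to 183 CPM and 206 to 314 CPM. DP markers, over 6 genes, were lower, at 1202 to 1433 CPM and 629 to 1017 CPM, as were B-cell markers, at 25.2 to 35.1 CPM and 8.74 to 14.4 CPM, and myeloid markers, at 12.3 to 16.1 CPM and 4.38 to 6.27 CPM with S100a8 at 0 in both. NK and innate lymphoid markers summed to 0.434 CPM or less in every DN3 library, and Klrd1 and Klrk1 were at 0 in transgenic DN3. Their part in the differences above was not tested.

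**Figure D3:**
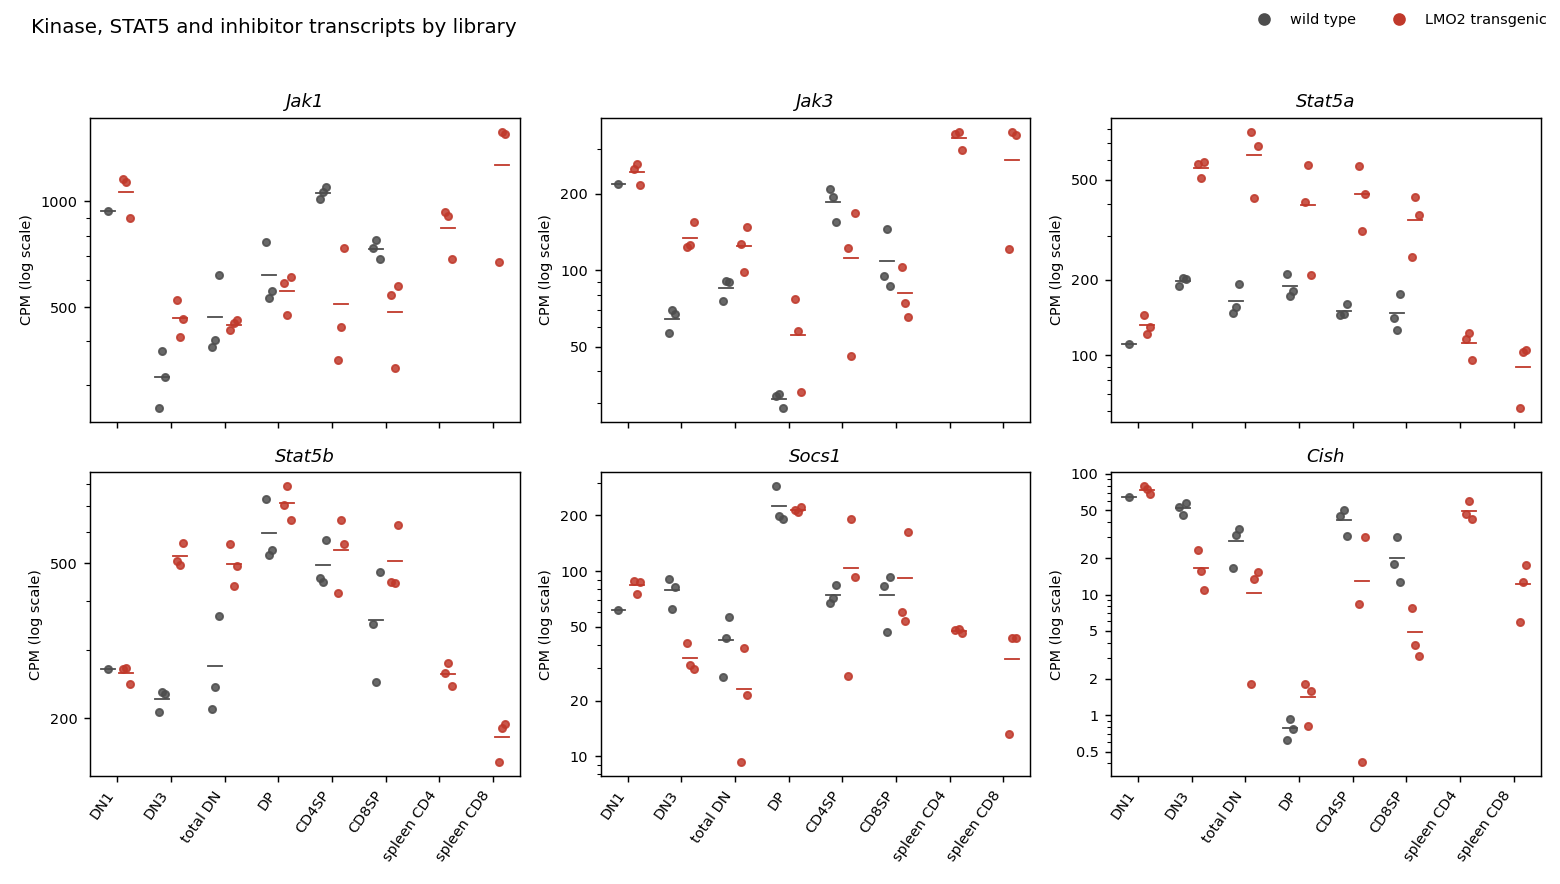
CPM of the 2 kinase, 2 STAT5 and 2 inhibitor genes (log axis) in each library, by stage, with wild type in grey and LMO2 transgenic in red; the short lines are group means. Stat5a is above wild type in every transgenic thymic library from DN3 on except 1 DP library at 210 CPM, and Cish is at or under 1.81 CPM in all DP libraries.

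In total DN, Stat5a rose and the other 9 genes were not called. It was at 148, 156 and 192 CPM in wild type and 776, 423 and 682 CPM in transgenic total DN, a 3.66-fold difference (log2 1.87 ± 0.24, edgeR adjusted p = 0.00529). The call was kept in all 6 fits with a library left out and in all 7 other fits tried. This was 1 of 10 genes called, where 12.4% of 12509 genes tested were, 7.47% higher and 4.89% lower. Stat5b was at 211, 240 and 366 CPM against 561, 436 and 491 CPM, and its difference of 0.82 ± 0.22 had an edgeR adjusted p of 0.0501. It passed without wild type replicate 3, at 1.09, and without transgenic replicate 2, at 0.90, and with a replicate block, at 0.85 with an edgeR adjusted p of 0.0497. It also passed with DESeq2, at 0.825 (DESeq2 adjusted p = 0.00703). In the fit of all 40 libraries and with no filter it passed at 0.86 and 0.81 (edgeR adjusted p = 0.00673 and 0.0418). With the size factors of DESeq2 in edgeR it was not called.

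Il2rg and Jak3 were 0.68 ± 0.24 and 0.49 ± 0.17 above wild type (edgeR adjusted p = 0.0981 and 0.101), and both passed without transgenic replicate 2, at 0.86 and 0.64. Cish was at 16.6, 31.2 and 35.0 CPM in wild type and 1.81, 13.6 and 15.3 CPM in transgenic cells, which did not overlap, and its difference of -1.49 ± 0.72 had an edgeR adjusted p of 0.214. Il2rb was at 242, 294 and 425 CPM against 26.1, 156 and 294 CPM. Markers of NK and innate lymphoid cells, which carry IL-2Rβ, summed over 5 genes to 82.4 to 91.2 CPM in wild type and 7.67 to 96.7 CPM in transgenic total DN, and those of red cells, over 6 genes, to 1545 to 22190 CPM and 47.3 to 2737 CPM. Lists that separated the genotypes as Stat5a did were mature T-cell markers, at 462 to 606 CPM in wild type and 904 to 1142 CPM in transgenic total DN, gamma-delta T-cell markers, at 97.9 to 126 CPM and 145 to 305 CPM, and stroma markers, at 117 to 153 CPM and 198 to 338 CPM. The mature T-cell list does not mark mature cells alone, as given for DN3. DP markers were lower in transgenic total DN, at 1252 to 1723 CPM and 448 to 751 CPM. Regulatory T-cell markers were lower too, at 262 to 300.5 CPM and 145 to 250 CPM. The part of these cells in the values above was not tested. The name ends in a letter N in transgenic replicates 1 and 3 and in no wild type library, a suffix the labels do not explain.

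In DP cells none of the 10 genes passed the threshold, and no gene of 11649 did (0% called by edgeR), although 2450 genes, 4 of these 10 among them, had an unadjusted p under 0.05. DESeq2 called 617 genes and 3 of the 10. The transgenic libraries were uneven, with replicate 3 at wild type levels of Lmo2. Stat5a was at 212, 172 and 181 CPM in wild type DP and at 409, 575 and 210 CPM in transgenic replicates 1, 2 and 3. The lowest value was in the library with the low Lmo2 level, and it lay within the wild type range. The same library was lowest of the 3 for Il2ra, at 39.2, 57.3 and 23.4 CPM against 12.9, 12.1 and 13.9 CPM in wild type. It was lowest for Il2rb too, at 12.6, 12.6 and 8.94 CPM against 2.20, 4.03 and 4.02 CPM, and for Jak3, at 76.7, 57.5 and 33.1 CPM against 32.0, 32.7 and 28.7 CPM. Among the other genes that library was lowest for Il2rg and Stat5b and in the middle for Il7r and Cish. It was highest for Jak1, at 609.5 CPM, and for Socs1, at 222 CPM. The part of the Lmo2 level in these values was not tested.

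Without transgenic replicate 3, 4 of the 10 genes and 906 genes in all were called in DP. Il2ra was 1.88 ± 0.21 higher, Il2rb 1.86 ± 0.34, Stat5a 1.37 ± 0.20 and Jak3 1.10 ± 0.19, with edgeR adjusted p of 0.00848, 0.0342, 0.0199 and 0.0303. With all 3 libraries the differences were 1.62 ± 0.31, 1.73 ± 0.33, 1.08 ± 0.33 and 0.84 ± 0.28, each with an edgeR adjusted p of 0.213. Il7r stayed low in DP of both genotypes, at 4.54, 13.4 and 5.55 CPM in transgenic cells, and Cish was at 1.81, 0.820 and 1.59 CPM. Socs1 was at 213, 208 and 222 CPM in transgenic DP, inside the wild type range of 192 to 287 CPM.

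Some genotype differences were not the same in DP as in DN3. A test of the difference itself, over the 12 libraries of both stages, called 4 of the 10 genes where 10.2% of 12451 genes were called, 4.88% more positive in DP and 5.29% more negative. The genotype difference was more positive in DP for Cish, by 2.53 ± 0.45, for Il2ra, by 1.30 ± 0.35, and for Socs1, by 1.14 ± 0.28, with edgeR adjusted p of 0.0063, 0.0352 and 0.0271. It was more negative in DP for Stat5b, by -0.97 ± 0.23 (edgeR adjusted p = 0.023). For Stat5a the difference between stages was -0.42 ± 0.38 (edgeR adjusted p = 0.488) and for Jak3 -0.22 ± 0.34 (edgeR adjusted p = 0.702). The call of Cish was kept in all 12 fits that left out 1 library. Without transgenic DP replicate 3 the number of genes called was 2598. Stat5b kept its call in 9 of 12 fits, losing it without wild type DN3 replicate 1 or 3 or transgenic DN3 replicate 3, at -0.92, -0.99 and -0.91. Socs1 kept it in 6 of 12, at 1.01 to 1.11 without transgenic DN3 replicate 2 or 3, wild type DN3 replicate 1 or 3, or wild type DP replicate 2 or 3. Il2ra kept it in 4 of 12, those without wild type DN3 replicate 2, wild type DP replicate 1, or transgenic DP replicate 2 or 3, and was at 1.24 to 1.36 in the others.

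In CD4SP, Stat5a was higher and Jak1 lower in transgenic cells, and 8 of the 10 genes were not called, where 25.9% of 12073 genes were, 15% higher and 11% lower. Transgenic replicates 1 and 2 went against their labels, as given above, and Jak1 was lower in both than in replicate 3. The part of other cells in the Stat5a and Jak1 values was not tested. Stat5a was at 144, 146 and 160 CPM in wild type and 567, 314 and 439 CPM in the transgenic libraries, a 2.94-fold rise (log2 1.55 ± 0.24, edgeR adjusted p = 0.00994). It lost the call without wild type replicate 1 or 2, at 1.499 and 1.51, and the genes called in all then numbered 38 and 100. Jak1 was at 1015, 1064 and 1101 CPM in wild type and 354, 439 and 737 CPM in the transgenic libraries. Its fall by 1.04 ± 0.30 (edgeR adjusted p = 0.0452) was called in 1 of 6 fits with a library left out, the one without transgenic replicate 3, and was -0.85 to -1.10 in the other 5.

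The other genes differed most among the transgenic libraries themselves, whose sort markers differed too. Il7r was at 516, 504 and 423 CPM in wild type and at 142, 3.30 and 286 CPM in the transgenic libraries, the lowest being the one with DP-like levels of Cd8a and Rag1. Its difference was -1.73 ± 1.14 (edgeR adjusted p = 0.29), and without transgenic replicate 2 it was -1.18 ± 0.33 and called (edgeR adjusted p = 0.0325). Il2ra was at 47.6, 36.6 and 28.4 CPM against 349, 20.4 and 208 CPM. Its difference was 2.36 ± 0.85 (edgeR adjusted p = 0.0801), and 2.89 ± 0.31 without transgenic replicate 2 (edgeR adjusted p = 0.00277). The highest value was in the library with the low Cd4 level, replicate 1, without which the difference was 1.60. Cish was at 45.0, 49.7 and 30.8 CPM against 8.39, 0.408 and 30.2 CPM, a difference of -1.13 to -3.22 with 1 library left out and called in none of these fits. Il2rb was at 200, 184 and 189 CPM against 91.9, 4.49 and 662 CPM, the last in a library with 213 CPM of summed NK markers, against 25.9 to 35.2 CPM in wild type. The part of other cells in these values was not tested.

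In CD8SP, Stat5a was again higher and Il7r lower in transgenic cells, where 4.45% of 11697 genes were called, 2.09% higher and 2.36% lower. Stat5a was at 142, 126 and 176 CPM in wild type and at 247, 428 and 362 CPM in transgenic CD8SP, a 2.34-fold rise (log2 1.23 ± 0.23, edgeR adjusted p = 0.0332). Il7r was at 136, 142 and 88.5 CPM against 34.9, 48.5 and 26.8 CPM, a 3.31-fold fall (log2 -1.73 ± 0.27, edgeR adjusted p = 0.0222). The genotypes did not overlap for either gene. Each call was kept in 3 of 6 fits with a library left out. Both were lost without wild type replicate 1 or 2, at 1.19 and 1.15 for Stat5a and -1.65 and -1.59 for Il7r. Stat5a lost it also without transgenic replicate 2, at 1.05, and Il7r without transgenic replicate 1, at -1.70. In the libraries with no suffix N neither was called, at 1.03 and -1.88, and in the fit of all 40 libraries Il7r was not, at -1.73 (edgeR adjusted p = 0.142).

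Beyond those calls, 5 more of the 10 genes had genotypes that did not overlap in CD8SP, as did 25.9% of all genes. Cish was at 17.9, 29.8 and 12.7 CPM in wild type and 7.77, 3.79 and 3.10 CPM in transgenic cells (log2 -2.03 ± 0.45, edgeR adjusted p = 0.0503). Il2ra was at 5.73, 5.02 and 4.94 CPM against 18.9, 58.6 and 10.1 CPM (log2 2.48 ± 0.60, edgeR adjusted p = 0.0672). Il2rb was at 228, 233 and 130 CPM against 79.1, 101 and 44.2 CPM (log2 -1.39 ± 0.34, edgeR adjusted p = 0.0685). Il2rg and Jak1 were lower in transgenic cells by amounts that missed the threshold, at -0.51 ± 0.16 and -0.60 ± 0.22. Rag1, a gene of DP cells, was at 2983 CPM in wild type CD8SP replicate 3 and at 6099 CPM in transgenic replicate 3, against 458 to 1230 CPM in the other 4 libraries. Gamma-delta T-cell markers summed to 3.18 to 4.64 CPM in wild type and 35.0 to 110 CPM in transgenic CD8SP. The part of other cells in these levels was not tested.

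Whether the genotype difference itself differed between CD8SP and CD4SP was tested for all 10 genes, and none was called, where 0.032% of 12507 genes were. For Stat5a the difference between lineages was -0.31 ± 0.34, and for Il7r it was 0.03 ± 1.28, an error larger than most differences given above. At an unadjusted p under 0.05 none of the 10 passed, DESeq2 called 673 genes in all, and in the libraries with no suffix N, 3 of the 10 and 642 genes in all were called. Transgenic CD4SP is there replicate 2 alone, the library with the Cd8a and Rag1 levels of DP.

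In DN1, where Lmo2 itself differed by less than its error, none of the 10 was called and no gene of 14845 was (0% called by edgeR), with 157 genes but none of the 10 at an unadjusted p under 0.05, and 3 genes called by DESeq2. The standard errors of the 10 genes were 0.29 to 1.23, so differences of that size were not detectable. The test used the spread of all 40 libraries, since wild type DN1 has 1. Stat5a was at 111 CPM in the wild type library and at 145, 121 and 130 CPM in the transgenic ones. DN1 was the thymic stage with the most Il7r, at 563 CPM in wild type and 747, 845 and 864 CPM in transgenic cells, and with the most Il2rb, at 1172 CPM against 1682, 1373 and 1518 CPM. It also held the most Cish, at 64.1 CPM against 78.9, 74.6 and 67.4 CPM. Markers of NK and innate lymphoid cells summed to 394 CPM in wild type and 590 to 704 CPM in transgenic DN1. B-cell markers summed to 1390 CPM and 607 to 921 CPM, and myeloid markers to 495 CPM and 317 to 611 CPM. In DN3 no library passed 35.1 CPM of B-cell markers or 16.1 CPM of myeloid markers. The part of these cells in the Il7r, Il2rb and Cish levels was not tested.

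**Figure D4:**
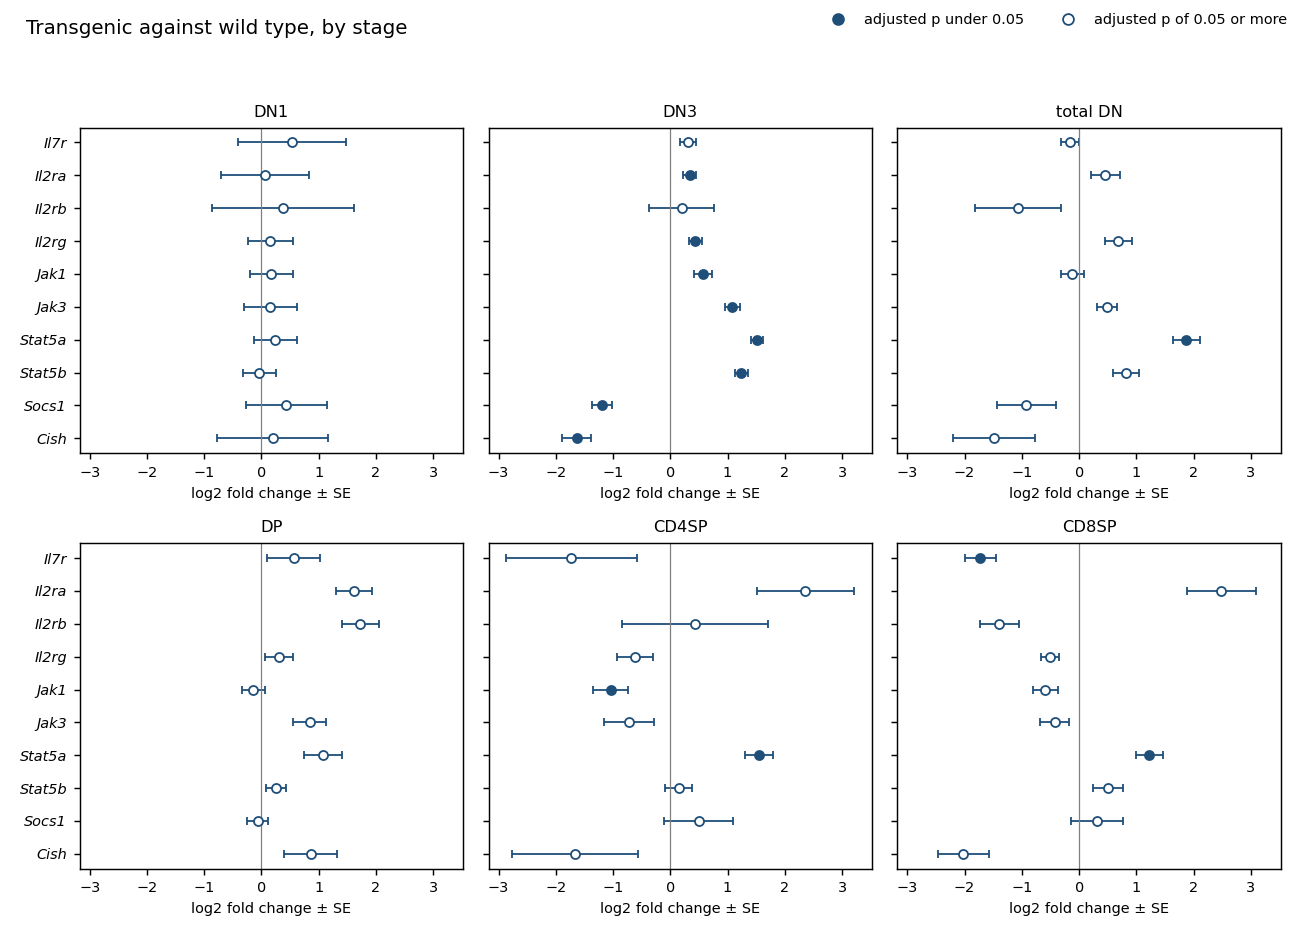
Log2 fold change of transgenic against wild type with its standard error for each of the 10 genes in 6 thymic stages; filled points have an adjusted p under 0.05. Stat5a is called higher in DN3, total DN, CD4SP and CD8SP, and the 2 inhibitors are called lower in DN3 alone.

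In transgenic spleen, T cells held less Stat5a and Stat5b and more Jak3 than transgenic single-positive thymocytes. The calls of Jak3, and that of Stat5b against CD4SP, were lost in several fits with a library left out, as given below. Transgenic CD4SP replicates 1 and 2 and splenic CD8 replicate 1, which enter these comparisons, went against their labels. Stat5a was at 117, 123 and 95.6 CPM in splenic CD4 cells and 61.7, 103 and 105 CPM in splenic CD8 cells, under every transgenic CD4SP and CD8SP library. It fell by 1.99 ± 0.27 against CD4SP (edgeR adjusted p = 0.00923). It differed by -1.998 ± 0.30 from CD8SP (edgeR adjusted p = 0.00443), and both calls were kept in all 6 fits with a library left out. With no wild type spleen, these values do not show a genotype difference.

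Against CD4SP, 3 of the 10 genes were called in splenic CD4 cells, where 24.5% of genes were, 12.5% higher and 12% lower. Stat5b fell by 1.06 ± 0.20, to 262, 277 and 242 CPM (edgeR adjusted p = 0.0162), and lost the call without any 1 splenic library, at -1.03 to -1.11. Jak3 rose by 1.54 ± 0.45, to 343, 350 and 297 CPM (edgeR adjusted p = 0.0485), a call kept in 2 of 6 fits, those without transgenic CD4SP replicate 2 or 3, at 1.16 to 1.93 over the 6. Il7r was at 504, 458 and 350 CPM and Cish at 46.9, 59.4 and 42.2 CPM, both above all transgenic CD4SP libraries and not called (edgeR adjusted p = 0.352 and 0.251). Il2ra differed by -1.49 ± 0.86 (edgeR adjusted p = 0.239). Without transgenic CD4SP replicate 2 it was -2.03 and called (edgeR adjusted p = 0.0139). Socs1 differed by -1.12 ± 0.60 (edgeR adjusted p = 0.214). Without transgenic CD4SP replicate 1 it was -1.575 and called (edgeR adjusted p = 0.0354). In these splenic libraries red-cell markers summed to 1070 to 58630 CPM, B-cell markers to 479 to 1903 CPM and myeloid markers to 462 to 3106 CPM, the last 2 highest in replicate 3, against 21.2 to 61.4 CPM and 33.1 to 151 CPM of B-cell and myeloid markers in transgenic CD4SP. Their part was not tested.

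Against CD8SP, 7 of the 10 genes were called in splenic CD8 cells, where 37.3% of genes were, 17.2% higher and 20.1% lower. Il7r was at 198, 1006 and 949 CPM in spleen, the lowest in the library with high B-cell and myeloid markers, and it rose by 4.23 ± 0.66 (edgeR adjusted p = 0.00506). Il2rb was at 221, 2113 and 2348 CPM and rose by 4.32 ± 0.90 (edgeR adjusted p = 0.0128), a call lost without CD8SP replicate 1 or 3, at 4.36 and 4.05. Without splenic replicate 1 the rises of Il7r and Il2rb were 4.68 and 4.84. NK and innate lymphoid markers summed to 121 to 514 CPM in splenic CD8 cells, lowest in replicate 1, against 4.15 to 10.2 CPM in transgenic CD8SP, and their part in the Il2rb level was not tested. Jak1 and Jak3 rose by 1.33 ± 0.39 and 1.68 ± 0.43 (edgeR adjusted p = 0.0384 and 0.0239), and each kept the call in 1 of 6 fits, the one without splenic replicate 1, at 1.15 to 1.64 and 1.46 to 2.03 over the 6. Stat5b fell by 1.55 ± 0.21 (edgeR adjusted p = 0.00325) and kept its call in all 6. Il2ra fell by 2.58 ± 0.68 (edgeR adjusted p = 0.0276), which held in 2 of 6 fits, those without splenic replicate 1 or CD8SP replicate 3, and was -1.46 without CD8SP replicate 2, the library with the most Il2ra. Without splenic replicate 1, 9 of the 10 genes were called, Il2rg at 1.30 and Cish at 1.58 among them. In that fit 5354 genes in all were called, against 4546 with every library.

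Between the 2 splenic populations Il2ra was the gene of the set that differed, where 0.491% of 12429 genes were called, 0.105% higher and 0.386% lower in CD8 cells. It was at 71.2, 84.6 and 53.6 CPM in CD4 cells and 6.70, 3.60 and 4.87 CPM in CD8 cells, a 13.6-fold difference (log2 -3.77 ± 0.31, edgeR adjusted p = 0.0166). The call was kept in 2 of 6 fits, those without splenic CD8 replicate 1 or CD4 replicate 3, at -3.58 to -4.02 over the 6. Markers of regulatory T cells summed to 326 to 565 CPM in splenic CD4 and 41.4 to 62.2 CPM in splenic CD8 cells, and their part was not tested. Without splenic CD8 replicate 1, 5 of the 10 genes and 1289 genes in all were called. Il2rb was then 1.93 ± 0.15, Il7r 1.18 ± 0.17 and Jak1 0.91 ± 0.16 higher in CD8 cells, and Cish was lower at -1.68 ± 0.22 (edgeR adjusted p between 0.00493 and 0.0297).

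Across the 14 group means on a log2 scale, some pairs of the 10 genes moved together. These are given as a description over points that differ in depth and RNA content. Il7r followed Jak3 at a Pearson r of 0.92 and Cish at 0.87. Il2rb followed Jak3 and Il7r, each at 0.83. Il2rg followed Jak1 at 0.87, and Stat5a followed Stat5b at 0.74. Il2ra ran against Jak1 at -0.71, Stat5a against Jak1 at -0.71, and Il7r against Stat5b at -0.70. Among 9851 genes with a mean of at least 5 CPM, the nearest to Il7r were Gvin1 at 0.97, Ccnd2, the gene of cyclin D2, at 0.96 and Oasl2 at 0.96. Ccnd2 was also nearest to Cish, at 0.92, followed by Prkch and Ifih1. For Il2rb they were Arsb at 0.98, Cd7 and Ahnak, and for Il2ra Plekha7 at 0.94, Arhgef5 and Mcub. For Il2rg they were Ppp1r18 at 0.98, B3galt4 and Sp100, for Jak1 Ssh2 at 0.98, Usp12 and Kdm7a, and for Jak3 Tmem173 at 0.98, Cd82 and Ripor2. The gene nearest to Stat5a was Med24 at 0.98, ahead of Fbxo34 and Cry2, and to Stat5b Zfp64 at 0.97, ahead of Zfp251 and Zfp740. Socs1 was closest to Zfyve28 at 0.97, Cfap74 and Btg2.

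Around the 10 genes, other genes of the pathway also differed in transgenic DN3, in lists that are read against the 45.7% of all genes called there. Of 7 other JAK and STAT genes 4 rose and none fell: Stat3, the STAT of IL-6 and IL-21, rose by 1.75 ± 0.12, from 148, 183 and 169 CPM to 588, 504 and 561 CPM, beside Jak2 at 0.60, Stat6 at 0.40 and Tyk2 at 0.31. Of 17 inhibitors 6 rose and 2 fell. Socs3, a relative of Socs1, fell by 1.74 ± 0.12, from 54.8, 58.2 and 57.3 CPM to 18.7, 14.3 and 17.3 CPM, while the phosphatase genes Dusp5 and Dusp6 rose by 1.19 and 1.38. Of 14 genes of adaptors and the PI3K arm 8 rose and 1 fell, among them Foxo3 at 1.403, Grb2 at 1.26 and Foxo1, a known activator of Il7r, at 0.76. Of 12 known regulators of Il7r transcription 8 rose and none fell. Klf2, a factor of quiescent T cells, rose by 3.28 ± 0.41, Runx3 by 1.93 ± 0.12, Ikzf1 by 1.06 ± 0.13 and Ets1 by 0.92 ± 0.12. Medians were 0.31, 0.23, 0.49 and 0.81 for these 4 lists and -0.03 over all genes. All genes named here had edgeR adjusted p of 0.0366 or less, and of 25 pathway genes chosen by rule in DN3, 22 kept their call in all 6 fits with a library left out. Tyk2, Stat6 and Tslp did not. In the fit of all 40 libraries Il4ra, Gab2, Slc2a1, Tnfrsf18 and Bcl2l1, which are among the 22, lost their calls too, at edgeR adjusted p between 0.0539 and 0.457.

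Genes known to answer STAT5, IL-7 or IL-2 did not move as 1 group in transgenic DN3: of 18 tested 4 rose and 1 fell, with a median of 0.25, a smaller share than the 45.7% of all genes called. Ccnd3, the gene of cyclin D3, rose by 1.30 ± 0.13, from 359, 306 and 371 CPM to 788, 946 and 781 CPM (edgeR adjusted p = 1e-04). Bcl2l1 and the glucose carrier gene Slc2a1 rose by 0.52 and 0.50, and Tnfrsf18 fell by 0.78. Of 5 other receptor chains tested, Il4ra rose by 1.36 and Il9r by 2.20, and Il15ra fell by 1.02. Of 2 ligands tested, Il15 was at 0.185, 0.377 and 0.109 CPM in wild type and 3.73, 2.45 and 3.07 CPM in transgenic DN3, and Tslp fell by 1.80 at levels of 1.33 CPM or less, a call lost without wild type replicate 1 or 3 or transgenic replicate 2.

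In total DN, CD4SP and CD8SP fewer of these genes were called, and none of those named kept its call in every fit with a library left out (0 of 9 in total DN, 0 of 19 in CD4SP and 0 of 6 in CD8SP). In total DN Ccnd3 rose by 1.01 ± 0.15 and Stat3 by 1.55 ± 0.32 (edgeR adjusted p = 0.00794 and 0.0241). Ccnd3 lost the call without wild type replicate 2, at 0.98, and Stat3 without wild type replicate 1 or 2 or transgenic replicate 3, at 1.398, 1.45 and 1.55. In CD4SP, of 20 response genes 4 fell and 1 rose, a share near the 25.9% of all genes called there. Bcl2, which protects from cell death, was at 468, 431 and 354 CPM in wild type and 42.4, 14.8 and 109 CPM in the transgenic libraries (log2 -2.89 ± 0.68, edgeR adjusted p = 0.0247). Gfi1, a repressor of Il7r, rose there by 2.08 ± 0.26, from 29.9, 32.6 and 36.0 CPM to 142, 179 and 93.4 CPM (edgeR adjusted p = 0.0071). Without wild type replicate 1 the calls of all 19 were lost, with Bcl2 at -2.83 and Gfi1 at 1.99; Bcl2 was also lost without transgenic replicate 1 or wild type replicate 2 or 3, at -2.76, -2.90 and -3.02, and Gfi1 without wild type replicate 2, at 2.05.

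In CD8SP 4 of 20 response genes fell and none rose, where 4.45% of all genes were called. Ccnd2 was at 611, 578 and 295 CPM in wild type and 175, 83.9 and 88.2 CPM in transgenic CD8SP (log2 -2.09 ± 0.39, edgeR adjusted p = 0.0312). Pim2, a survival kinase gene, was at 73.4, 82.9 and 52.6 CPM against 31.7, 30.5 and 29.2 CPM (log2 -1.19 ± 0.19, edgeR adjusted p = 0.0224). Prf1 and Tnfrsf18 were the others. The calls were lost without wild type replicate 1 or 2, at -1.91 and -1.95 for Ccnd2 and -1.16 and -1.03 for Pim2, for Ccnd2 also without transgenic replicate 2 or 3, at -1.90 and -1.92, and for Pim2 without transgenic replicate 1, at -1.23.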

How the data were processed

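RNA was measured in 40 libraries, placed in 14 groups by the genotype and cell type of their labels. The authors deposited a read count and an FPKM value per gene and library, whole numbers and length-scaled values of the same reads. The submitters' processing notes list the aligners HISAT and Bowtie2, DESeq2, MACS2, and 2 genome builds, mm9 and mm10, with no roles. How reads were counted, and whether by strand, is not stated there. Columns for 4 sample values that match no sample (2 of them counts) were not used, and the ChIP peaks were not analysed here. The 10 genes were followed by identifier.

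The tests on the deposited counts ran in edgeR 4.0.16 (R 4.3.3): filterByExpr (minimum count 10, minimum total 15), TMM scaling and the robust quasi-likelihood test, two-sided, with Benjamini-Hochberg adjustment over all genes tested and a threshold of 0.05. Log2 fold changes use a prior count of 0.125, and each comparison was fitted on its own groups, DN1 on all 40 libraries. Levels are CPM with TMM scaling over the 40 libraries. FPKM served to compare genes, since it is scaled by length. With 3 against 3 libraries no two-sided permutation test of the group labels can give a p under 0.1. Nothing says that replicates came from separate mice, so p-values measure the spread between libraries. No 2 libraries of a group were alike within sampling noise. Same-numbered libraries were taken as paired only where the deviations of all 3 pairs correlated above 0.1, which no comparison reached (lowest correlation per comparison from -0.589 to 0.09), so no block was used.

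The 10 genes, the pathway and marker lists, the tests and the rule for named genes were chosen with earlier results of these data known. The rule names the 10 genes, Lmo2, up to 4 genes with the smallest adjusted p per pathway list and genotype comparison, and for each of the 10 the 3 genes with the highest correlation of log2(CPM + 1) over groups. Pathway genes were taken from it as examples. Alternatives were DESeq2 1.42.0, its size factors, no filter, all groups in 1 fit, a replicate block, each library left out, a term for a column suffix N carried by 12 libraries, and, chosen after the data were seen, libraries with no such suffix. Counts were simulated for 12037 genes of the DN3 comparison and 12073 genes of CD4SP, with 100 genes changed by 1 and 100 by 2 on the log2 scale. Of the genes changed by 1, 86% were recovered in DN3 and 11% in CD4SP. Far more genes were called in the data, 5497 and 3132, which makes the adjusted threshold less strict. The simulated shares therefore do not carry over to the data.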

Additional observations from a re-analysis of the deposited data

Results flagged for a closer look

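The genotype difference of 4 of the 10 genes differed between DP and DN3 by a test of that difference over 12 libraries. On the log2 scale the difference between stages was 2.53 ± 0.45 for Cish, which was lower in transgenic DN3 (-1.64 ± 0.25) and was 0.86 ± 0.47 above wild type in DP at levels under 2 CPM. It was 1.14 ± 0.28 for Socs1, which was lower in transgenic DN3 (-1.20 ± 0.17) and at -0.07 ± 0.19 in DP. It was 1.30 ± 0.35 for Il2ra, at 0.34 ± 0.11 in DN3 and 1.62 ± 0.31 in DP, and -0.97 ± 0.23 for Stat5b, at 1.24 ± 0.11 in DN3 and 0.25 ± 0.18 in DP. The edgeR adjusted p values were 0.0063, 0.0271, 0.0352 and 0.023. In a fit of all 40 libraries they were 0.172, 0.35, 0.345 and 0.0519.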

How the results depend on the processing

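Calls of the 10 genes that held under every alternative run include Stat5a in DN3 and total DN, Stat5b and Jak3 in DN3, and the wild type falls of Il7r and Cish from DN3 to DP. Counts that moved by over 1.5 times follow, as all genes called and, after a slash, those of the 10. DESeq2 gave 3 in DN1, 2625/3 in total DN, 617/3 in DP, 1292/6 in CD8SP, 810/2 between the splenic populations, 2182 for genotype by stage and 673 for genotype by lineage. A fit of all groups gave 2644/3 in DN3, 2 of the 10 in total DN, 695/1 in DP, 5723/4 in CD4SP, 6867/8 and 7722 for splenic CD4 and CD8 cells against thymus, 1164 between them, 553/0 for genotype by stage and 500 for genotype by lineage. With no filter, 2 of the 10 were called in total DN and 32 genes for genotype by lineage.

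Same-numbered libraries were not shown to be paired; in total DN each deviated most like its own number (0.09, 0.091 and 0.228). The replicate block gave 2 of the 10 in total DN, 1362/1 in CD4SP (Il2rb at -1.343), 798/4 in CD8SP, 2009 in splenic CD4, 3 of the 10 in splenic CD8, 0/0 between the splenic populations and 0 for genotype by lineage.

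The column suffix N is carried by 2 of 3 transgenic libraries in total DN and CD4SP and by none of their controls, so fits that allow for it rest on 1 transgenic library. A term for it gave 198 genes in total DN, 5 of the 10 in CD4SP (Il2ra at -0.868, Il2rb at -5.4), 1991 for genotype by stage and 1 for genotype by lineage (Cish at 0.489). Libraries without it, a choice made after seeing the data, gave 539 in total DN, 5367/8 in CD4SP (Il2ra at -0.865, Il2rb at -5.397), 18/0 in CD8SP and 642/3 for genotype by lineage (Il2rb at 3.864, Cish at 4.723). There Il7r, Jak1 and Socs1 turned in DP (-0.272, 0.109 and 0.13), and Il7r and Il2rg for genotype by stage (-0.504 and 0.179).

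With 1 library left out, all genes called (and those of the 10) ranged from 0 to 0 in DN1, 3802 to 6185 (6 to 8) in DN3, 179 to 3146 (1 to 4) in total DN, 0 to 906 (0 to 4) in DP, 38 to 4329 (0 to 3) in CD4SP and 9 to 724 (0 to 3) in CD8SP. They ranged from 5830 to 8329 (8 to 9) for wild type DP against DN3, 3747 to 6540 (8 to 8) for CD4SP and 2163 to 5495 (6 to 8) for CD8SP against DP. They ranged from 461 to 3227 (1 to 5) for splenic CD4, 2626 to 5354 (3 to 9) for splenic CD8, 0 to 1289 (0 to 5) between them, 352 to 2598 (1 to 4) for genotype by stage and 0 to 611 (0 to 0) by lineage.

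None of the values that turned with a library left out was called. Their ranges were -0.091 to 0.303 (Il2ra) and -0.068 to 0.008 (Stat5b) in DN1, -0.436 to 0.468 (Il2rb) in DN3 and -0.245 to 0.127 (Jak1) in total DN. In DP they were -0.086 to 0.838 (Il7r), -0.241 to 0.003 (Jak1) and -0.17 to 0.104 (Socs1), in CD4SP -0.018 to 0.295 (Stat5b), -0.319 to 0.939 (Socs1) and -1.953 to 0.965 (Il2rb), and in CD8SP -0.377 to 0.587 (Socs1). For wild type DP against DN3 it was -0.224 to 0.003 (Stat5a), and between splenic populations -0.47 to 0.103 (Il2rg) and -0.506 to 0.083 (Jak3). For genotype by stage they were -0.335 to 0.561 (Il7r), -0.515 to 0.054 (Jak3) and -0.277 to 0.217 (Il2rg). By lineage they were -0.044 to 0.509 (Il2rg), -0.542 to 1.042 (Il7r), -0.921 to 0.878 (Il2ra), -0.053 to 0.744 (Jak3), -0.825 to 0.626 (Socs1), -2.367 to 0.633 (Il2rb) and -0.898 to 1.265 (Cish). The cause was not tested in any case. In the simulation of CD4SP, where few genes were changed, changes of 1 on the log2 scale were mostly missed. In the data more genes were called, so that share does not carry over.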
